A study of Mus musculus with 6 samples.

Results

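The miR-181 family was described in pancreas of mice with experimental acute pancreatitis and of saline controls. Its members were chosen by name as 8 mature arms, mmu-miR-181a-5p, mmu-miR-181b-5p, mmu-miR-181c-5p and mmu-miR-181d-5p with the 3p arms mmu-miR-181a-1-3p, mmu-miR-181a-2-3p, mmu-miR-181b-1-3p and mmu-miR-181c-3p (written below without mmu-, for mouse), and all 8 were among the 1414 rows of the deposited small RNA table. The model group held 3 libraries (replicates 56, 57 and 59) of wild-type C57BL/6 mice given 7 intraperitoneal injections 1 hour apart of caerulein, a cholecystokinin-like peptide that drives acinar cells to excess secretion, at a labelled 50 mg/kg (caerulein is usually dosed in micrograms per kg, so the labelled unit may be a slip), with lipopolysaccharide (LPS), the endotoxin of Gram-negative bacteria, added to the last injection. The control group held 3 libraries (replicates 43, 44 and 45) of wild-type C57BL/6 mice given saline on the same schedule. Pancreas was taken 24 hours after the start in both groups, and the labels give no age. Caerulein and LPS were given together, so their effects cannot be told apart. Whether every library is from a different mouse is not labelled, and p-values therefore speak only of the spread among these 6 libraries, part of which may be technical.

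MicroRNAs are cut from hairpin precursors, and each hairpin can yield a 5p and a 3p mature arm, one of which usually accumulates as the guide strand while the other, the passenger strand, is mostly degraded. The guide pairs with messenger RNAs mainly through its seed, bases 2 to 8, and lowers their translation and stability. In mouse, miR-181a is known for setting the sensitivity of developing T cells to antigen and for its part in B-cell development, and miR-181b is known for dampening NF-kB signalling in endothelium. The family is encoded as paired hairpins at 3 loci, and miR-181a-5p and miR-181b-5p each come from a pair of loci.

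The mature sequences are shown because the near-identity of the arms decides what the counts can tell apart. All 8 were the same in the deposited table and in RefSeq (GRCm38.p6), and the seed is in capitals.
miR-181a-5p: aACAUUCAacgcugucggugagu
miR-181b-5p: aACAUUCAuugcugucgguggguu
miR-181c-5p: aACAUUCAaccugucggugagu
miR-181d-5p: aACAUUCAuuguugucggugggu
miR-181a-1-3p: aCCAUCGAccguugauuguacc
miR-181a-2-3p: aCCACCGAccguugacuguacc
miR-181c-3p: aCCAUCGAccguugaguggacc
miR-181b-1-3p: cUCACUGAacaaugaaugcaa

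The 4 5p arms share the seed ACAUUCA, and no other row of the table carried it. Counted from the 5′ end, miR-181b-5p differs from miR-181a-5p by A9U, C10U and A21G and is 1 base longer, and miR-181d-5p differs from miR-181b-5p by C12U and is 1 base shorter. From miR-181a-5p, miR-181c-5p differs by a single edit, with the first 10 bases identical and 1 base fewer in all. The 3p arms miR-181a-1-3p and miR-181c-3p share the seed CCAUCGA and differ by U16G and U19G. A substitution inside the seed, U5C, together with U16C, separates miR-181a-2-3p from miR-181a-1-3p. The sources used here do not say how the authors assigned reads that fit several of these sequences, so the split of reads between the arms is uncertain.

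In GRCm38 (GENCODE M21), Mir181a-1 at chr1:137966455-137966541 and Mir181b-1 at chr1:137966639-137966718 lie 97 bases apart on the plus strand, in an exon of the long noncoding RNA A430106G13Rik. Mir181a-2 at chr2:38852735-38852810 and Mir181b-2 at chr2:38853830-38853918 lie 1019 bases apart on the plus strand, opposite an intron of Nr6a1, which encodes an orphan nuclear receptor and lies on the minus strand; Mir181b-2 also overlaps the unclassified Gm44144 there. Mir181d at chr8:84178716-84178787 and Mir181c at chr8:84178873-84178961 lie 85 bases apart on the minus strand within an intron of Nanos3, which encodes a germ cell RNA-binding protein. The mature miR-181a-5p is identical from chromosomes 1 and 2, and so is miR-181b-5p, so their reads cannot be assigned to a locus, whereas miR-181a-1-3p and miR-181a-2-3p each come from 1 locus.

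Total counts per library were 2489009 to 3006220 in model libraries and 1943693 to 2629801 in control libraries. Of the totals that the authors divided by for RPM, these were 10.2%, 13.6% and 11.9% in model replicates 56, 57 and 59. In control replicates 43, 44 and 45 they were 9.43%, 8.73% and 7.17%, below every model library. Why the groups differ in this was not tested. Levels below are in CPM, that is, counts brought to the same library size with TMM factors, which set the typical miRNA equal between libraries. A read covers about a whole mature arm (21 to 24 bases in the 8 members), so no division by length was made. It need not stand for 1 molecule, and unequal ligation may distort levels between miRNAs. The tissue carried its defining miRNAs in every library: the 8 acinar miRNAs on the list, among them miR-216a and miR-148a, took 5.49% to 5.90% of counts in model and 5.26% to 8.34% in control libraries.

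The 5p arms made up nearly the whole family, and miR-181a-5p alone supplied 82.4% to 83.7% of the family's counts in model libraries and 84.7% to 88.4% in control libraries. Over all libraries miR-181a-5p ranked between 16 and 20 among the rows by count. It stood at 19977, 20561 and 18730 CPM in model replicates 56, 57 and 59, and at 21351, 27694 and 25636 CPM in control replicates 43, 44 and 45. All model libraries lay below all controls, and the lowest control was close to the highest model library. The next most abundant arm, miR-181c-5p, was at 2620, 2473 and 2325 CPM in model and at 1967, 2628 and 1638 CPM in control libraries, with control replicate 44 just above the highest model library and the other controls below the lowest. For miR-181b-5p the values were 1127, 1555 and 1515 CPM in model and 1696, 1727 and 1545 CPM in control libraries, and the groups overlapped. Scarcest of the 5p arms was miR-181d-5p, with 58.5, 104.8 and 86.0 CPM in model and 91.6, 88.1 and 105.5 CPM in control libraries, which also overlapped.

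In all 6 libraries the order was miR-181a-5p, miR-181c-5p, miR-181b-5p and miR-181d-5p. The neighbours miR-181c-5p and miR-181b-5p averaged 2472 ± 147.6 and 1399 ± 237 CPM in model libraries, and 2077 ± 504 and 1656 ± 97.2 CPM in control libraries (SD, n = 3 each), so in control libraries they differed by less than the spread of miR-181c-5p. The 8 members together took 2.59%, 2.68% and 2.64% of all counts in model replicates 56, 57 and 59, and 2.49%, 2.80% and 2.49% in control replicates 43, 44 and 45. These ranges overlap, with means of 2.64% ± 0.0480 in model and 2.59% ± 0.177 in control libraries (SD, n = 3 each).

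**Figure D1:**
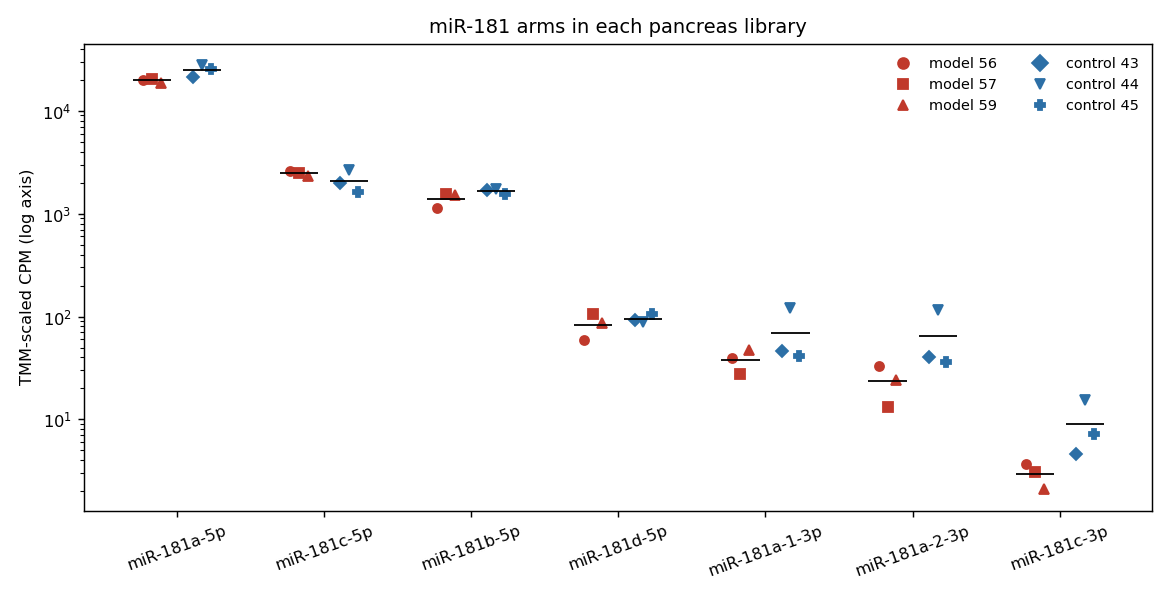
TMM-scaled CPM (log axis) of the 7 tested miR-181 arms in each library, model left of control for each arm, with a black line at the group mean. The 5p arms lie above the 3p arms in group means, and control replicate 44 has the highest level of each 3p arm.

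The study set pancreas of mice given caerulein and LPS against that of saline mice to find miRNAs that differ. Of the 8 members 7 passed the filter on low counts, and none of the 7 was called: 0 were higher, where 1% of all 499 rows tested were, and 0 were lower, where 0.2% were (edgeR quasi-likelihood test, adjusted p under 0.05 over all rows). DESeq2 also called 0. At an unadjusted p under 0.05, 3 of the 7 were lower and 0 higher, where 12.4% of all rows were lower and 11.4% higher. Among all members tested the adjusted p ran from 0.140 to 0.748. In TMM-scaled CPM, model libraries lay wholly below controls for 3 of the 7, miR-181a-5p, miR-181a-2-3p and miR-181c-3p, and wholly above for 0. Of all rows, 16.6% lay wholly below and 14.4% wholly above. Log2 fold changes, model over control, were negative for 6 members and positive for miR-181c-5p, with a median of -0.33 over the 7 against 0.0050 over all rows.

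The bulk of the family, miR-181a-5p, had a log2 fold change of -0.33 with an SE of 0.13 (edgeR adjusted p = 0.170). The 32 rows of at least 10000 CPM, of which it is one, had a median log2 fold change of -0.37, and 30 of them were negative. It was 0.25 for miR-181c-5p (SE 0.22; edgeR adjusted p = 0.569), -0.24 for miR-181b-5p (SE 0.21; adjusted p = 0.567) and -0.19 for miR-181d-5p (SE 0.27; adjusted p = 0.748). Those of miR-181c-5p and miR-181b-5p lay on either side of the median of -0.13 over the 67 rows from 1000 to below 10000 CPM. The scaling decided the sign of all 4 5p arms. Scaled by the totals that the authors divided by for RPM, which raised the median of all rows by 0.79, the 4 had log2 fold changes of 0.47 for miR-181a-5p, 0.56 for miR-181b-5p, 1.02 for miR-181c-5p and 0.64 for miR-181d-5p, and miR-181c-5p was then called higher (edgeR adjusted p = 0.0420), as were 24.8% of all rows in that fit. With total counts alone miR-181a-5p was at -0.03 (edgeR adjusted p = 0.881), so its lower level in model libraries rests on the TMM factors. With upper quartile factors miR-181c-5p was at -0.04. Single libraries also moved these values: that of miR-181c-5p was 0.08 without control replicate 45 and 0.44 without control replicate 44, and that of miR-181b-5p was -0.06 without model replicate 56.

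**Figure D2:**
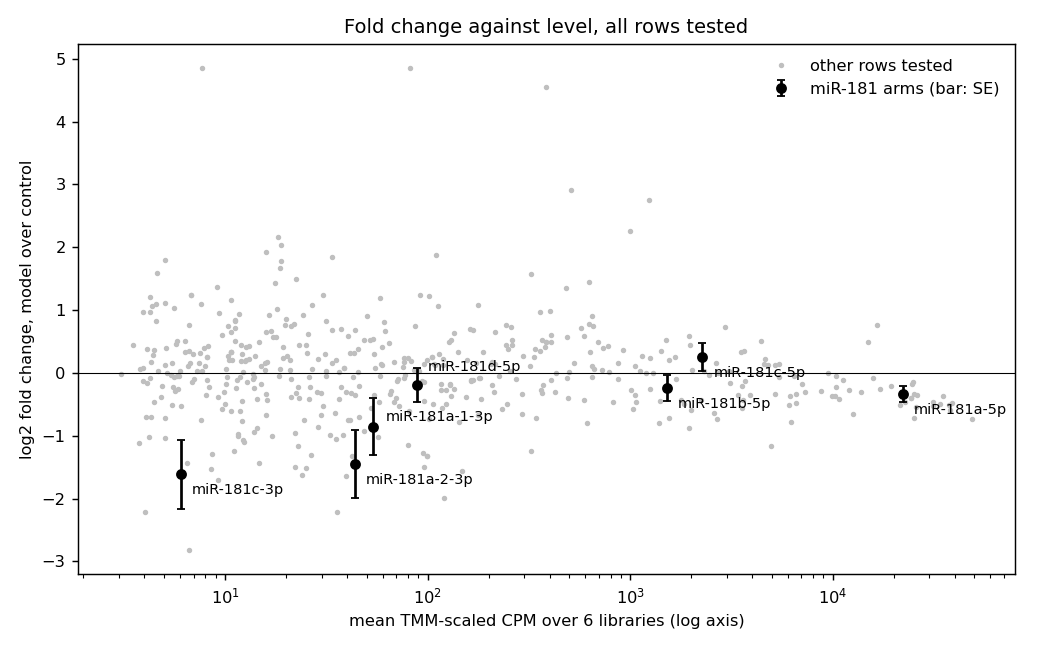
Log2 fold change, model over control, against mean TMM-scaled CPM (log axis) for the 499 rows tested, with the 7 tested miR-181 arms in black and their standard errors as bars. The 5p arms lie between -0.33 and 0.25, and the 3p arms between -1.62 and -0.86 at low levels.

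Shares of the members within the family do not depend on the scaling between libraries, and in them miR-181c-5p, miR-181a-5p and the scarce miR-181c-3p separated the groups. The share of miR-181c-5p was 11.0%, 10.0% and 10.2% in model replicates 56, 57 and 59, and 7.80%, 8.11% and 5.65% in control replicates 43, 44 and 45. Every model library exceeded every control, with means of 10.4% ± 0.515 in model and 7.19% ± 1.34 in control libraries (SD, n = 3 each; two-sided exact permutation p = 0.1, the smallest that 3 libraries against 3 can give). Control replicate 45 was the lowest, and without it the difference in means was 2.44 percentage points, against 3.21 with it. Conversely, miR-181a-5p had 83.7%, 83.1% and 82.4% in model and 84.7%, 85.5% and 88.4% in control libraries (exact permutation p = 0.1), and since shares add up to the whole, this is largely the same difference seen from the other side. Read as a ratio, an index chosen after the values were seen, there were 120 to 131 reads of miR-181c-5p per 1000 reads of miR-181a-5p in model libraries and 63.9 to 94.9 in control libraries.

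The share of miR-181c-3p was 0.0155%, 0.0124% and 0.00920% in model and 0.0183%, 0.0481% and 0.0248% in control libraries, lower in every model library than in any control (exact permutation p = 0.1). The share of miR-181a-2-3p, whose CPM had separated the groups, overlapped. It was 0.140%, 0.0533% and 0.106% in model and 0.160%, 0.359% and 0.126% in control libraries (exact permutation p = 0.2). The remaining 5p arms kept no separation. The share of miR-181b-5p was 4.72%, 6.29% and 6.67% in model and 6.73%, 5.33% and 5.33% in control libraries (exact permutation p = 1), with model replicate 56 the lowest of all and control replicate 43 the highest. For miR-181d-5p it was 0.245%, 0.424% and 0.378% in model and 0.364%, 0.272% and 0.364% in control libraries (exact permutation p = 0.8), with model replicate 56 again the lowest. These p-values belong to 8 shares compared in the same way and are unadjusted, and with 3 libraries a group none of them could pass 0.05. Although miR-181c-5p and miR-181d-5p come from neighbouring hairpins, miR-181d-5p had 22.3 to 42.4 reads per 1000 of miR-181c-5p in model and 33.5 to 64.4 in control libraries, ranges that overlap. Because miR-181c-5p is a single edit from the far more abundant miR-181a-5p, reads of one counted for the other would move this share. Whether the groups differ in such reads was not tested.

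**Figure D3:**
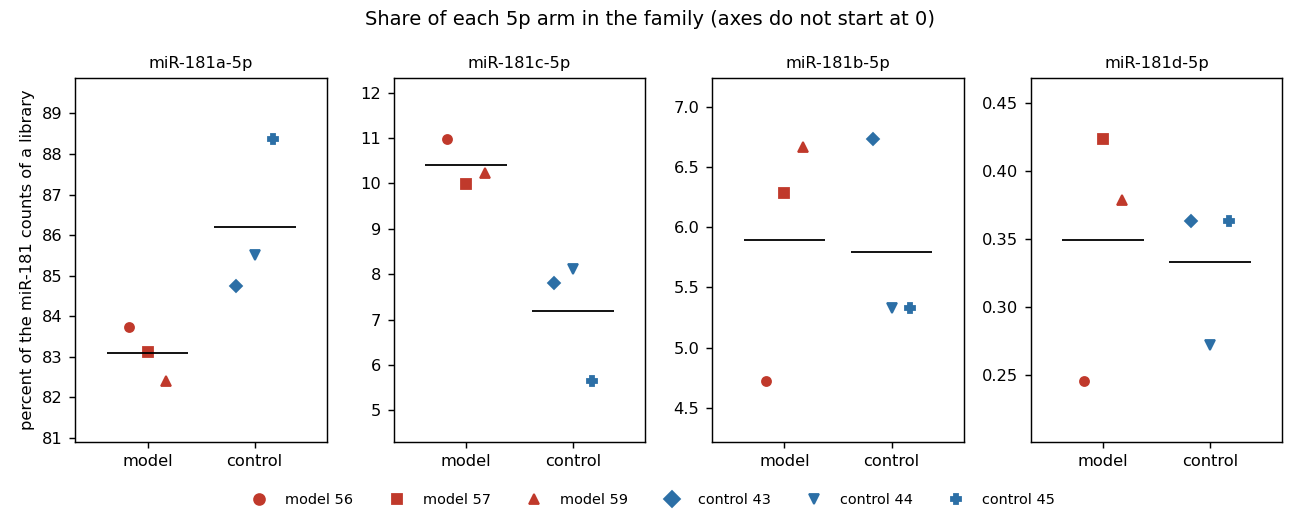
Percent of a library's miR-181 counts in each 5p arm, 1 panel per arm, model left of control, with a black line at the group mean and axes that do not start at 0. The model libraries lie above the controls for miR-181c-5p (means 10.4% and 7.19%) and below them for miR-181a-5p, while miR-181b-5p and miR-181d-5p overlap.

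The 3p arms, here the passenger strands, were scarce, and control replicate 44 had the most of each of the 3 that passed the filter. For miR-181a-1-3p, from chromosome 1, the counts were 107, 90 and 158 in model replicates 56, 57 and 59, and 120, 246 and 69 in control replicates 43, 44 and 45. In CPM these are 39.6, 27.6 and 47.2 in model and 46.2, 119.7 and 41.4 in control libraries, and the groups overlapped (log2 fold change -0.86 with SE 0.45, edgeR adjusted p = 0.301). Its counterpart from chromosome 2, miR-181a-2-3p, had counts of 90, 43 and 81 in model and 105, 239 and 61 in control libraries. That came to 33.3, 13.2 and 24.2 CPM in model and 40.4, 116.3 and 36.6 CPM in control libraries, with the highest model library just below the lowest control (log2 fold change -1.45, SE 0.55, edgeR adjusted p = 0.163). Without a filter on low counts miR-181a-2-3p was called lower (log2 fold change -1.46, edgeR adjusted p = 0.00353), in a fit that called 2.48% of 1414 rows lower. Scarcer still was miR-181c-3p, with 10, 10 and 7 counts in model and 12, 32 and 12 in control libraries. Its levels of 3.70, 3.07 and 2.09 CPM in model lay below 4.62, 15.6 and 7.19 CPM in control libraries (log2 fold change -1.62 with SE 0.55, edgeR adjusted p = 0.140).

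These sizes rested in good part on control replicate 44. Without it the log2 fold change was -0.21 for miR-181a-1-3p, -0.72 for miR-181a-2-3p and -0.99 for miR-181c-3p. The 145 other minor arms of the hairpins with both arms measured, an index added after the values were seen, took 2.75%, 2.48% and 2.87% of counts in model and 2.38%, 2.21% and 2.31% in control libraries, so that control replicate 44 was the lowest there. Abundant arms weigh most in this pooled sum, so it does not describe the typical minor arm. Of miR-181b-1-3p there were 2 counts in model replicate 59 and 0 in the other 5 libraries, where a count of 0 allows up to 3 counts, or 0.998 to 1.54 CPM of the unscaled total. No fold was computed for it. Counting intervals and such limits cover counting error only.

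Set against its own 5p arm, each 3p arm was rare in every library. There were 707, 807 and 1112 reads of miR-181c-5p per read of miR-181c-3p in model replicates 56, 57 and 59, and 426, 169 and 228 in control replicates 43, 44 and 45. All model libraries exceeded all controls, which was the case for 10.8% of the pairs of arms tested. The log2 ratio was 9.59 ± 0.31 in model and 7.90 ± 0.65 in control libraries (SD, n = 3 each), a difference of 1.69 (SE 0.41) with an unadjusted limma p of 0.00398 and an adjusted p of 0.256 over the pairs. Of all pairs 14.2% had an unadjusted p under 0.05 and 0.676% an adjusted one, and 0 of the 3 miR-181 pairs passed after adjustment, with 1 at the unadjusted level. Per read of miR-181a-1-3p there were 504, 745 and 397 reads of miR-181a-5p in model and 462, 231 and 620 in control libraries, and the groups overlapped (limma adjusted p = 0.782). Per read of miR-181a-2-3p there were 599, 1560 and 774 in model and 528, 238 and 701 in control libraries, which overlapped as well (limma adjusted p = 0.429). The numerator of both is the 5p arm that the hairpins on chromosomes 1 and 2 share, so these are not separate measurements of each hairpin.

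The 3p arms of the miR-181a hairpins on chromosomes 1 and 2 were also set against each other. Their ratio depends on ligation and on the split of reads as well as on the hairpins, and was not tested as a measure of either locus. The ratio of miR-181a-1-3p to miR-181a-2-3p was 1.19, 2.09 and 1.95 in model replicates 56, 57 and 59, and 1.14, 1.03 and 1.13 in control replicates 43, 44 and 45. Controls were close to even, model replicates 57 and 59 were well above them, and model replicate 56 was barely above the highest control. The log2 ratio was 0.75 ± 0.44 in model and 0.14 ± 0.08 in control libraries (SD, n = 3 each), a difference of 0.61 (two-sided exact permutation p = 0.1, the smallest possible). It was 0.57 without control replicate 44, the library in which both arms were highest, and 0.47 to 0.87 without each of the others in turn.

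**Figure D4:**
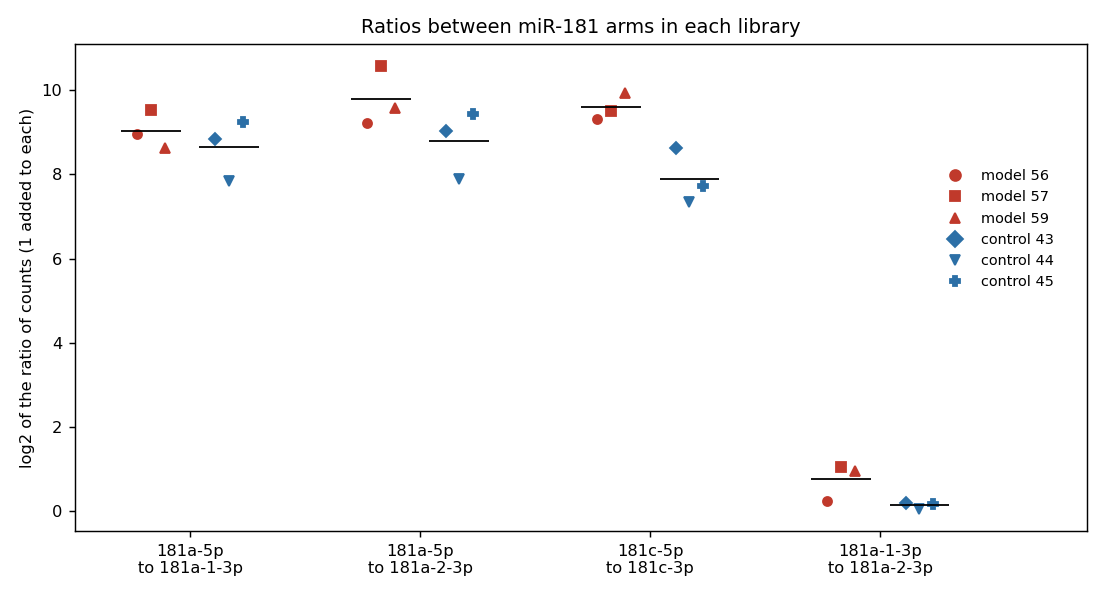
Log2 of the ratio of counts, with 1 count added to each, for 3 pairs of 5p and 3p arms and for miR-181a-1-3p to miR-181a-2-3p, model left of control, with a black line at the group mean. The model libraries lie above the controls for miR-181c-5p to miR-181c-3p (means 9.59 and 7.90) and for miR-181a-1-3p to miR-181a-2-3p (means 0.75 and 0.14).

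Likeness of pattern was measured as the root mean square difference of centred log2(CPM + 1) over the 6 libraries, among 365 other known arms of at least 10 CPM. Closest to miR-181a-5p was miR-15a-5p at 0.057, with 8343, 8961 and 8464 CPM in model and 10049, 12445 and 10921 CPM in control libraries. It was followed by let-7b-5p (0.065), the endothelial miR-126a-3p (0.070), the epithelial miR-200c-3p (0.082) and let-7g-5p (0.087). Within the family miR-181b-5p was at 0.21 from miR-181a-5p and miR-181c-5p at 0.35, farther than any of these, while miR-181b-5p and miR-181d-5p were at 0.17 from each other. The rows named before were the nearest 5 of 365, so this comparison does not show how usual such distances are. Closest to miR-181a-1-3p were miR-130b-5p (0.21), let-7d-3p (0.26), miR-328-3p (0.26), miR-27b-5p (0.29) and miR-27b-3p (0.33). In all 5 of these control replicate 44 was the highest library, as it was for miR-181a-1-3p, with 6051 CPM of let-7d-3p there against 2198 to 3533 CPM in the other libraries. These rows were picked for their likeness over the same 6 libraries, so a shared highest library follows from the choice.

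Myeloid and pan-leukocyte markers took larger shares of counts in every model library than in any control, and the islet list as a whole took a smaller one. The part of any of these cells in the miR-181 values was not tested. In bulk tissue fewer cells of a type and less RNA per cell cannot be told apart. Of 3 tested myeloid miRNAs 1 was higher, miR-223-3p, the neutrophil and macrophage miRNA, at 2160 ± 60.8 CPM in model and 321 ± 129 CPM in control libraries (SD, n = 3 each; log2 fold change 2.75, edgeR adjusted p = 0.00770). The myeloid list took 0.239% to 0.251% of counts in model and 0.0226% to 0.0502% in control libraries, and the pan-leukocyte miR-142a arms 0.130% to 0.212% in model and 0.0268% to 0.0975% in control libraries, with 0 of 2 called. Lymphoid miRNAs, markers of the cells in which miR-181a is best known, overlapped, with 0.216% to 0.888% in model and 0.352% to 0.570% in control libraries and 0 of 4 called (median log2 fold change 0.55). The most abundant, miR-150-5p, was at 3452 ± 2226 CPM in model and 4401 ± 769 CPM in controls (SD, n = 3 each). Its log2 fold change was -0.35 (edgeR adjusted p = 0.735), of the opposite sign to the median. Of these 3 lists, miR-155-3p alone was at 0 in all control libraries. The islet list took 4.67% to 5.83% of counts in model and 5.94% to 7.09% in control libraries, with 0 of 5 called. The median log2 fold change of this list was 0.0050, so its members were not all lower. Its most abundant member, miR-375-3p, was at 36701 ± 5095 CPM in model and 60704 ± 9422 CPM in control libraries (SD, n = 3 each; log2 fold change -0.73 with SE 0.15, edgeR adjusted p = 0.0611). The shares of the 8 acinar miRNAs overlapped, with 0 of 8 called and a median log2 fold change of -0.49. Erythroid miRNAs overlapped, with 0.777% to 1.33% in model and 0.922% to 1.36% in control libraries and 0 of 5 called. The endothelial miR-126a arms took 3.74% to 4.11% in model and 3.82% to 4.11% in control libraries, with 0 of 2 called. NF-kB is the pathway that miR-181b acts on in endothelium. The list named for its feedback mixes arms of miR-146a, miR-146b, miR-155, miR-147, miR-132, miR-212 and miR-21a. Whether NF-kB drives these miRNAs in this tissue was not tested. Of the 10 tested miRNAs on this list, 3 were higher (miR-212-5p, miR-147-3p and miR-21a-3p) and 0 lower. The median log2 fold change was 1.43, and the list took 2.75% to 3.40% of counts in model and 1.08% to 1.73% in control libraries. Its most abundant member, which weighs most in that share, was miR-21a-5p. In model libraries it was at 20877 ± 2050 CPM, against 12256 ± 1970 CPM in controls (SD, n = 3 each). It was not called (log2 fold change 0.77, edgeR adjusted p = 0.0564), nor was any arm of miR-146a, miR-146b or miR-155.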

How the data were processed

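The authors deposited 1 table with a row per mature arm. Read counts per arm stand in it as whole numbers without normalization, per the file headers, and the deposited RPM columns hold each count relative to a library total of 22055639 to 27876715, recovered here from count and RPM where counts reached 100. The sources used here say neither what that total counts nor whether molecular identifiers were collapsed. Gel-cut RNA of 18 to 30 nt was ligated to adapters carrying such identifiers and amplified by PCR, per the labels' protocols. Bowtie2 and GRCm38.p6 are named without a role, per the submitters' processing notes. Groups and replicate numbers came from the sample titles. Replicates were checked as copies by chi-square per degree of freedom, 98.7 to 265 over 6 pairs, so none was.

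Counts were fitted over the whole table with edgeR 4.0.16 in R 4.3.3: filterByExpr at defaults (minimum count 10, minimum total 15), TMM factors, robust two-sided quasi-likelihood test, Benjamini-Hochberg adjustment over 499 rows. Log2 ratios of arms were tested with limma 3.58.1 (robust; mean of at least 10 counts per arm). Single values were compared with the exact permutation test in scipy 1.17.1, with no adjustment over members and none for the family's sum. DESeq2 1.42.0, other scalings and filters, and leaving out each library were alternatives. Code was tested on simulated data. The members and lists were chosen with earlier results of these data known. Named beside the 8 members were the 5 rows nearest in pattern to miR-181a-5p and to the most abundant 3p arm, and list members that were called or were named as what the list holds; the most abundant of each list are named in part only.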

Additional observations from a re-analysis of the deposited data

How the results depend on the processing

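The labels describe no pairing between model and control libraries, so no paired analysis was made. Over 16 alternatives to the fold changes, 1 member was called higher with the authors' RPM totals, where 24.8% of all rows were, and 1 lower without a filter on low counts, where 2.48% were. With 14 others, 0 members were called. Signs turned for the 5p arms only: with the authors' totals miR-181a-5p was at 0.47, miR-181b-5p at 0.56 and miR-181d-5p at 0.64; with total counts alone miR-181b-5p was at 0.055 and miR-181d-5p at 0.11; with upper quartile factors miR-181c-5p was at -0.038; without single libraries miR-181d-5p ran from -0.36 to 0.048. Scalings moved the median of all rows by -0.29 to 0.79, and the cause of other moves was not tested. The 3p arms stayed negative throughout, from -1.97 to -0.08. The log2 ratio of miR-181a-5p to miR-181a-1-3p differed by 0.39, and by -0.010 to 0.69 when single libraries were left out. Over 11 alternatives 0 miR-181 arm ratios were called. The family's share of all counts differed by 0.0451 percentage points, and by -0.00621 to 0.147 without single libraries. Shares of 3 members separated the groups, 2 with the 5p arms alone and 3 to 5 without single libraries. No share over all rows stands beside these counts, because the shares were taken within the family. With fewer libraries in a group separation also comes more easily, and miR-181a-5p and miR-181c-5p largely show the same difference. Without single libraries the difference in share ran from -0.292 to 0.680 for miR-181b-5p, from -0.0211 to 0.0681 for miR-181d-5p and from 2.44 to 3.68 for miR-181c-5p. The newer quasi-likelihood dispersion, added after the data were seen, called 0 members. Counts of 7 to 32 per library limit miR-181c-3p.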
